A study of Homo sapiens with 9 samples.

Results

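Caveolae are small flask-shaped pits of the plasma membrane, and the genes described here encode 4 of the proteins that build them: CAV1 and CAV2 (caveolin-1 and caveolin-2), PTRF (cavin-1, named CAVIN1 in newer annotations) and EHD2. The members were picked by gene name from a table of 58037 genes, and all 4 were found, each in 1 row. They were proposed with values of these libraries already known, among them the level of CAV1 against control. Their values against control and between lines are therefore given as a description, without p-values. Where members are among the genes that a fit called, or are lost from them, this only places them among all genes and is not a test of them. All 4 passed the filter on low values, an RPKM (reads per length of gene and depth of library) of at least 1 in at least 3 libraries, as did 12965 genes in all.

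RNA sequencing of total RNA covered the cell lines MDA-MB-231, MDA-MB-436 and then MDA-MB-453, all established and derived from human triple-negative breast cancer, grown in DMEM with serum. Values of 3 lines stand in this order throughout. Each line gave 1 control library, 1 labelled GSK343 and 1 labelled shEZH2, so that 9 libraries form 3 groups of 3 and the lines serve as the replicates. GSK343 is a compound that blocks EZH2, the methyltransferase of the Polycomb repressive complex PRC2, and shEZH2 is a short hairpin RNA against its transcript. The sample labels give the controls as untreated while the table heads them as carrying a control hairpin, so it is unclear which they were, and dose and duration are not stated. The protocol describes the cells as transduced, inhibitor included. The series asks what happens to expression when EZH2 is targeted by either means.

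Caveolin-1 inserts into the inner leaflet of the membrane and oligomerises into the coat of the pit, and caveolin-2 joins it as a partner that depends on caveolin-1 to reach the cell surface. Cavin-1 is the cytosolic coat protein without which caveolae do not form, and EHD2 is an ATPase that sits as a ring at the neck and holds the pit at the surface. In breast cancer, caveolin-1 is known as a gene of basal-like and mesenchymal-like cells.

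CAV1 and CAV2 lie side by side on the plus strand of chromosome 7, and the sequences before their starts are shown because the expression of both was lower in every targeted library. EHD2 is shown because its transcript was nearly absent from MDA-MB-436. The windows hold the 250 bases before the most upstream RefSeq start listed for each gene (GRCh38.p14, plus strand, 5′ to 3′), chr7:116524759-116525008 for CAV1, chr7:116499488-116499737 for CAV2 and chr19:47713172-47713421 for EHD2. Capitals mark GGGCGG or its reverse complement CCGCCC, the core of the GC box.
CAV1: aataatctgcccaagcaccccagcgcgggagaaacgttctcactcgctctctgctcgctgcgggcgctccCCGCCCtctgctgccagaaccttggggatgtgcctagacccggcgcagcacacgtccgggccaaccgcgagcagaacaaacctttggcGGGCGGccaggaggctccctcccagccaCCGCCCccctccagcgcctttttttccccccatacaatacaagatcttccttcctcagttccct
CAV2: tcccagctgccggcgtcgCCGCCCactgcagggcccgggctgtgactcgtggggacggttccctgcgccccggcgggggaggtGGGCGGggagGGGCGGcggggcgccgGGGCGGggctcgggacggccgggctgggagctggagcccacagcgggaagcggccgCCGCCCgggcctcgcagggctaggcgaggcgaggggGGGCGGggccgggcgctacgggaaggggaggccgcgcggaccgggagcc
EHD2: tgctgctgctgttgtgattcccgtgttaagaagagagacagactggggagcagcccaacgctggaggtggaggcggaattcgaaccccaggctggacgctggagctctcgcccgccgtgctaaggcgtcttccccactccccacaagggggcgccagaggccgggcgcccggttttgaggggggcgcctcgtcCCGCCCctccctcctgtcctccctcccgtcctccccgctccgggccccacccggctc
The GC-box core occurred 3 times before CAV1, 6 times before CAV2 and 1 time before EHD2, with no overlapping matches, and 42.6% of 34788 distinct RefSeq windows of the same length held at least 1. CG dinucleotides numbered 18, 35 and 20 in the windows of CAV1, CAV2 and EHD2, against a median of 11 over all windows. The letters TATAAA (in 10.8% of all windows on either strand) and GGAATG (the core of the TEAD motif, in 11.9%) were in none of the 3. These matches describe the letters only. The windows precede a RefSeq start. By the gene bounds given below, that of CAV2 lies wholly within its gene, that of CAV1 mostly and that of EHD2 in part. PTRF is named without a sequence.

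The libraries held between 14757000 and 18283000 reads, recovered from the steps of the low values. Markers of both breast lineages were present. Of 8 mesenchymal or basal markers 5, 6 and 6 reached 1 RPKM in all libraries of the lines, with sums of 342 to 416, 271 to 395 and 319 to 508 RPKM, led by VIM (vimentin), while the basal keratins KRT5 and KRT14 did not exceed 0.057. Of 11 luminal markers 6, 6 and 7 did, with sums of 206 to 268, 139 to 187 and 157 to 177 RPKM, led by the keratin KRT18 (at most 100.4), while ESR1 and PGR, the oestrogen and progesterone receptors, did not exceed 0.060. Summed markers of other cell types rich in caveolae were low: at most 1.29, 0.459 and 0.653 RPKM for 5 endothelial genes, 0.384, 0.553 and 0.743 for 4 muscle genes, 4.96, 1.499 and 2.33 for 4 adipocyte genes and 4.603, 0.842 and 2.46 for 4 fibroblast genes, with 0 of each list except the adipocyte gene LPL in MDA-MB-231 at 1 RPKM in all libraries of a line. These sums were highest in MDA-MB-231 for 3 of the 4 lists, and their part in the line differences was not tested. EZH2 went against the labels in part, being lowest where the inhibitor and not the hairpin was named. Its RPKM was 27.4, 38.9 and 42.3 in the controls and 5.77, 7.53 and 7.99 under the GSK343 label. With the shEZH2 label it was 16.4, 37.4 and 16.2, so that it stayed close to control in MDA-MB-436. That library is still counted among the 6 targeted ones. Groups are therefore called by their labels. The libraries labelled MDA-MB-453 also stood apart, being described over 7416 abundant genes by weighted sums of the other lines with weights of 0.522 and 0.443 in the control, 0.494 and 0.471 under the GSK343 label and 0.524 and 0.480 with the shEZH2 label. The differences from these sums had an SD of 0.466, 0.212 and 0.135 on the log2(RPKM + 1) scale. Values are therefore given with and without them, since the lines may then not be independent replicates.

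CAV1 (ENSG00000105974.11, GRCh38 as for all gene positions here, chromosome 7, 116524785 to 116561184, plus strand) had the largest mean difference from control among the members. Its RPKM was 222, 160 and 242 in the controls (mean 208 ± 43.2 SD, n = 3). Under the GSK343 label it was 75.4, 69.2 and 70.6 (mean 71.7 ± 3.26 SD, n = 3), and with the shEZH2 label 84.6, 69.2 and 75.9 (mean 76.5 ± 7.72 SD, n = 3). The highest targeted library lay far below the lowest control, so the groups did not overlap. All 6 targeted libraries lay below all 3 controls for 2.14% of the 12965 tested genes. In bulk RNA, fewer cells expressing a gene and less RNA per cell cannot be told apart.

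Within lines, the GSK343-labelled libraries kept 34.0%, 43.4% and 29.1% of the CAV1 RPKM of their controls in the 3 lines. The shEZH2-labelled libraries kept 38.1%, 43.4% and 31.3%. The smallest difference was thus in MDA-MB-436, the line whose control held the least CAV1. On the log2(RPKM + 1) scale the mean difference from control was -1.50 ± 0.29 for the GSK343 label and -1.41 ± 0.24 for the shEZH2 label (SD, n = 3 lines), and without the MDA-MB-453-labelled libraries it was -1.37 and -1.29. CAV1 stood 68th to 187th by RPKM in the controls and 448th to 560th in the targeted libraries. Among 908 genes with a mean RPKM of at least 50, CAV1 had the largest mean decrease over the 6 targeted libraries. Among all 12965 tested genes it ranked 2nd from the lowest for the GSK343 label and 3rd for the shEZH2 label. CAV1 was chosen with its level against control known, so these ranks only describe it.

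The spread of CAV1 between lines also differed by condition. The highest line had 1.52 times the RPKM of the lowest in the controls, 1.09 times under the GSK343 label and 1.22 times with the shEZH2 label. CAV1 rested on 4423 to 15947 reads in a library, so that counting error was small beside these differences.

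**Figure D1:**
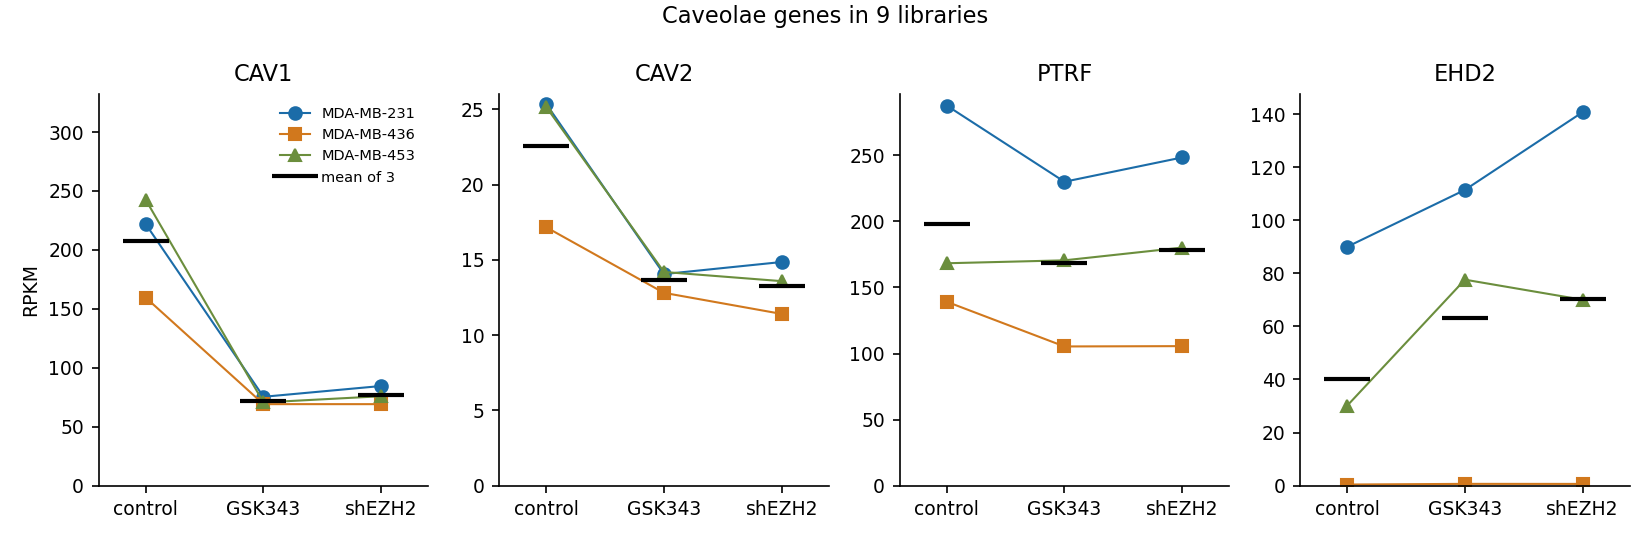
RPKM (vertical axes, from 0) of CAV1, CAV2, PTRF and EHD2 in the control, GSK343-labelled and shEZH2-labelled libraries, with 1 point per library joined within lines and a bar at the mean of 3. CAV1 and CAV2 are lower in all 6 targeted libraries than in any control, as are 2.14% of the tested genes. PTRF keeps the order of the lines, and EHD2 stays near 0 in MDA-MB-436.

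CAV2 (ENSG00000105971.14, chromosome 7, 116287380 to 116508541), the partner caveolin, moved the same way by a smaller amount. Its RPKM was 25.4, 17.2 and 25.2 in the controls (mean 22.6 ± 4.67 SD, n = 3). It was 14.1, 12.8 and 14.2 under the GSK343 label (mean 13.7 ± 0.764 SD, n = 3) and 14.9, 11.4 and 13.6 with the shEZH2 label (mean 13.3 ± 1.75 SD, n = 3). As for CAV1, and for 2.14% of the tested genes, no targeted library reached the lowest control.

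The mean difference of CAV2 from control was -0.66 ± 0.23 under the GSK343 label and -0.71 ± 0.15 with the shEZH2 label (log2(RPKM + 1), SD, n = 3 lines), and -0.60 and -0.64 without the MDA-MB-453-labelled libraries. MDA-MB-436 again had the smallest difference, at -0.40 and -0.55. Because CAV2 changed less than CAV1, the ratio of their RPKM shifted. There were 8.75, 9.29 and 9.64 units of CAV1 RPKM per unit of CAV2 in the controls of the lines in the same order. In the targeted libraries the ratio lay between 4.97 and 6.06, below every control.

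PTRF (ENSG00000177469.12, chromosome 17, 42402452 to 42423517, minus strand), which encodes the coat protein cavin-1, was separated by line more than by treatment. Its RPKM was 288, 139 and 168 in the controls, 230, 105 and 171 under the GSK343 label, and 248, 106 and 180 with the shEZH2 label. Targeted and control libraries overlapped. Within lines PTRF differed from control by -0.32, -0.40 and 0.02 under the GSK343 label and by -0.21, -0.40 and 0.10 with the shEZH2 label (log2(RPKM + 1)). Both targeted libraries were below their control in MDA-MB-231 and MDA-MB-436 and above it in those labelled MDA-MB-453, where the counting intervals of the GSK343-labelled library and the control overlapped (167.2 to 173.9 against 165.1 to 171.6 RPKM). Whether the lines differ was not tested. The means were -0.23 ± 0.22 and -0.17 ± 0.25 (SD, n = 3 lines), and -0.36 and -0.30 without the MDA-MB-453-labelled libraries.

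PTRF stood higher relative to CAV1 in the targeted libraries. The control libraries had 1.30, 0.873 and 0.694 units of PTRF RPKM per unit of CAV1. Under the GSK343 label the ratio was 3.05, 1.52 and 2.41, and with the shEZH2 label 2.94, 1.53 and 2.37. Each targeted library was above all controls.

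EHD2 (ENSG00000024422.11, chromosome 19, 47713343 to 47743134), the neck ATPase, ran the other way, with higher values than control in all 6 targeted libraries. In MDA-MB-231 its RPKM was 90.0 in the control, 111 under the GSK343 label and 141 with the shEZH2 label. In the libraries labelled MDA-MB-453 it was 30.1, 77.6 and 70.0. MDA-MB-436 had 0.425, 0.677 and 0.659 RPKM, from 28, 44 and 46 reads, with exact 95% Poisson intervals for counting error of 0.283 to 0.615, 0.492 to 0.909 and 0.482 to 0.879 RPKM. These intervals overlap, which alone does not decide whether the counts differ, and a difference within MDA-MB-436 was not tested.

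The mean difference of EHD2 from control was 0.63 ± 0.62 under the GSK343 label and 0.68 ± 0.49 with the shEZH2 label (log2(RPKM + 1), SD, n = 3 lines). The library labelled MDA-MB-453 gave the largest part, at 1.34 and 1.19, against 0.31 and 0.64 in MDA-MB-231. Without the MDA-MB-453-labelled libraries the means were 0.27 and 0.43. Over MDA-MB-231 and the MDA-MB-453-labelled libraries alone, with MDA-MB-436 left out, they were 0.82 and 0.91.

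The members' calls were read against all genes. In the limma fit with line as a term, CAV1 and CAV2 passed an adjusted p of 0.05 on the lower side for both labels, and 0 members passed on the higher side. Of the 12965 genes tested, 1.6% passed lower and 6.25% higher for the GSK343 label, and 2.28% and 8.35% for the shEZH2 label. After median-ratio rescaling the higher and lower calls were 521 and 442 (against 810 and 208) for the GSK343 label and 805 and 620 (against 1082 and 295) for the shEZH2 label. CAV1 and CAV2 were also the members whose 6 targeted libraries all lay below all 3 controls, as 2.14% of the tested genes did (4.57% lay above, with 0 members). For the GSK343 label alone 3.03% and for the shEZH2 label alone 4.48% of the genes lay below all controls. The share of genes lower than their own control in all 6 was 10.5%, and 19.4% were higher in all 6, as EHD2 was. CAV1 was at least 1.5-fold lower in all 6, as were 0.0694% of the genes. CAV2 was at least 1.5-fold lower in MDA-MB-231 (as were 4.56% and 5.72% of the genes for the GSK343 and shEZH2 labels) and in MDA-MB-453 (9.05% and 7.63%), but not in MDA-MB-436 (3.6% and 3.2%). EHD2 was at least 1.5-fold higher in MDA-MB-453 under both labels (16% and 17.4% of genes) and in MDA-MB-231 with the shEZH2 label (9.56%), but not under the GSK343 label (7.56%) nor in MDA-MB-436 (11.8% and 10.1%), all on the RPKM + 1 scale. Since these contrasts chose the members, nothing further is read from the counts. Without the libraries labelled MDA-MB-453, CAV1 alone passed for the GSK343 label and 0 members passed for the shEZH2 label, where 43 and 16 genes passed in all. CAV2 was also lost for the GSK343 label without the control labelled MDA-MB-453 (mean over the remaining lines -0.60), the library from MDA-MB-231 labelled GSK343 (-0.59) or that labelled MDA-MB-453 (-0.60), and for the shEZH2 label without the library from MDA-MB-453 labelled shEZH2 (-0.64). With no term for line, and with no filter on low values, 0 members passed for either label.

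The GSK343-labelled and shEZH2-labelled libraries share their controls, so they were also set against each other directly. GSK343 minus shEZH2 was -0.09 ± 0.08 for CAV1, 0.05 ± 0.12 for CAV2, -0.06 ± 0.06 for PTRF and -0.06 ± 0.25 for EHD2 (log2(RPKM + 1), SD, n = 3 lines). The largest single difference was that of EHD2 in MDA-MB-231, at -0.33, while CAV1 in MDA-MB-436 had 69.2 RPKM under both labels. Limma called 0 of 12965 genes between the labels (0% in each direction), with 295 at an unadjusted p under 0.05. A response to either intervention that differed between lines was called by limma for 3 genes (0.0231%), with 0 members or listed genes among them. In that model the GSK343-labelled and shEZH2-labelled libraries of a line stood in as replicates of a targeted state. Its residual spread therefore holds only differences between the labels and none between controls.

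**Figure D2:**
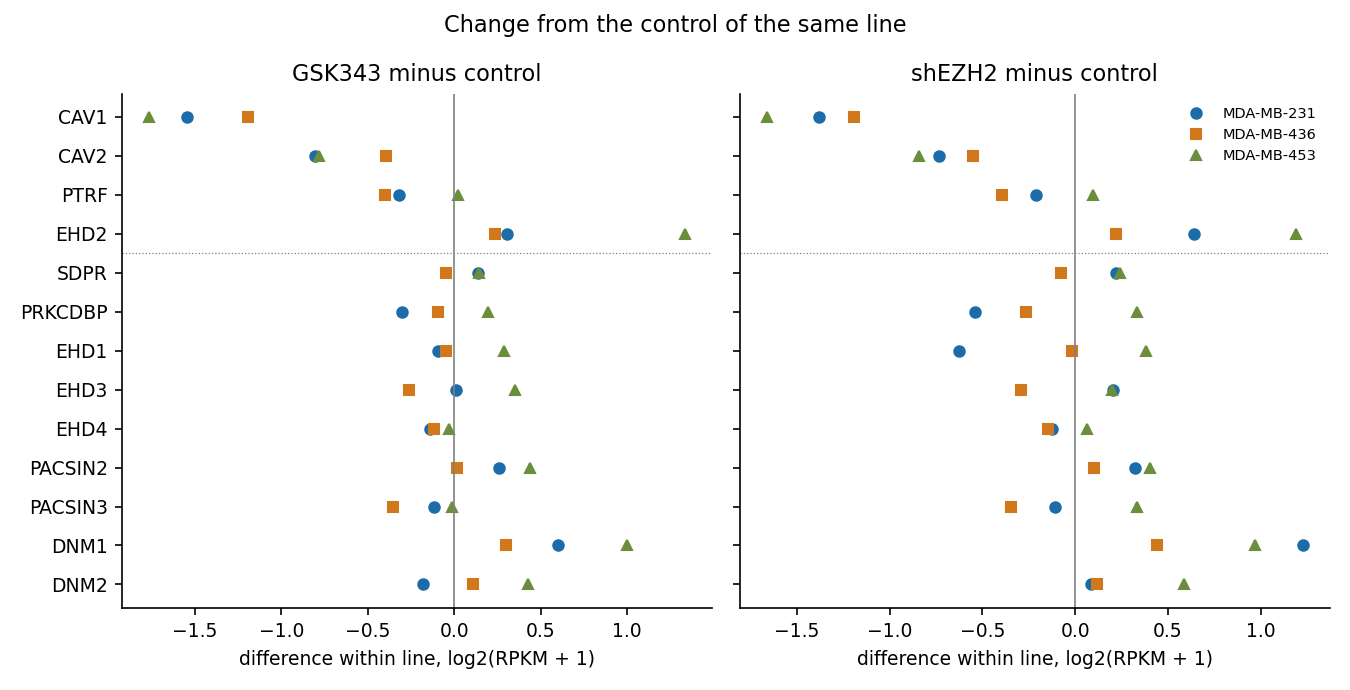
Difference from the control of the same line on the log2(RPKM + 1) scale (horizontal axes) for the 4 members, above the dotted line, and the 9 other tested coat and neck genes, with 1 point per line. CAV1 lies between -1.77 and -1.19 in all 6 comparisons, and most of the other coat and neck genes scatter around 0.

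None of the other genes of the caveolar coat and neck was called lower with either label. Over all tested genes only 1.6% and 2.28% were, for the GSK343 and shEZH2 labels, so 0 calls says little about this list. The shares called higher were 6.25% and 8.35%. The list held 13 genes, chosen with earlier results known: CAV3, the muscle caveolin, the cavins SDPR, PRKCDBP and MURC, the EHD ATPases EHD1, EHD3 and EHD4, the membrane-bending pacsins PACSIN1 to PACSIN3 and the membrane-cutting dynamins DNM1 to DNM3. Of these 9 were tested, and CAV3, MURC, PACSIN1 and DNM3 did not exceed 0.71 RPKM. For the GSK343 label 0 of the 9 passed in limma (1 at an unadjusted p under 0.05) and the median log2 fold change was 0.048, against 0.055 over all tested genes. For the shEZH2 label DNM1 rose (0.88 ± 0.39, half-width of the 95% interval, adjusted p = 0.0133) and 0 fell, with a median of 0.038 against 0.052. DNM1 had 2.32, 1.87 and 1.62 RPKM in the controls and 6.78, 2.89 and 4.13 with the shEZH2 label. It did not pass without the control labelled MDA-MB-453 (0.76), the library from MDA-MB-231 labelled shEZH2 (0.70) or all 3 libraries labelled MDA-MB-453 (0.83). For the GSK343 label it was at 0.63 ± 0.39 (adjusted p = 0.0522) and passed with a pseudocount of 0.1 (0.84), without the control of MDA-MB-436 (0.83), or without the shEZH2-labelled library from MDA-MB-231 or that from MDA-MB-436 (0.63 in both).

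Of the remaining cavins, PRKCDBP (cavin-3) was the most abundant, at 99.1, 28.8 and 35.2 RPKM in the controls. It had 80.2, 26.9 and 40.5 under the GSK343 label and 67.9, 23.8 and 44.6 with the shEZH2 label, with log2 fold changes of -0.07 and -0.16 that did not pass. Like PTRF, it was below control in both targeted libraries from MDA-MB-231 as from MDA-MB-436, and above it in those labelled MDA-MB-453. SDPR (cavin-2) had 15.8, 0.0738 and 8.57 RPKM in the controls and did not pass (0.08 and 0.13). EHD4, a relative of EHD2, lay between 15.2 and 20.05 RPKM in all 9 libraries.

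Between lines, MDA-MB-436 held less of the members than MDA-MB-231 in each condition. EHD2 was 212-fold, 165-fold and 214-fold lower in MDA-MB-436 in the controls and under the GSK343 and shEZH2 labels, as a ratio of RPKM. PTRF was 2.07-fold, 2.18-fold and 2.35-fold lower. CAV1 was 1.39-fold, 1.09-fold and 1.22-fold lower, and CAV2 1.48-fold, 1.10-fold and 1.30-fold. The 3 libraries of MDA-MB-436 lay below all those of MDA-MB-231 for EHD2 and PTRF, as for 29.5% of the tested genes, and overlapped with them for CAV1 and CAV2. Limma called the same 2 members lower, among 28.6% of the genes, and 34.8% of the genes were higher. EHD2 passed the filter on low values only through libraries of the other lines, and the calls only place the members among all genes. CAV1 and CAV2 were called lower as well without the control labelled MDA-MB-453 and after median-ratio rescaling, and CAV2 without all 3 libraries labelled MDA-MB-453.

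The order of the members by RPKM differed between lines too, a comparison that RPKM allows because it is per length. In the MDA-MB-231 control PTRF was highest, then CAV1, EHD2 and CAV2. In the MDA-MB-436 control CAV1 and PTRF were close, at 160 and 139 RPKM, and CAV2 stood above EHD2. The control labelled MDA-MB-453 had CAV1 highest, and EHD2 and CAV2 lay near each other at 30.1 and 25.2 RPKM. In all 6 targeted libraries PTRF was the highest of the 4. EHD2 exceeded CAV1 in both targeted libraries of MDA-MB-231 and in the GSK343-labelled one of MDA-MB-453.

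**Figure D3:**
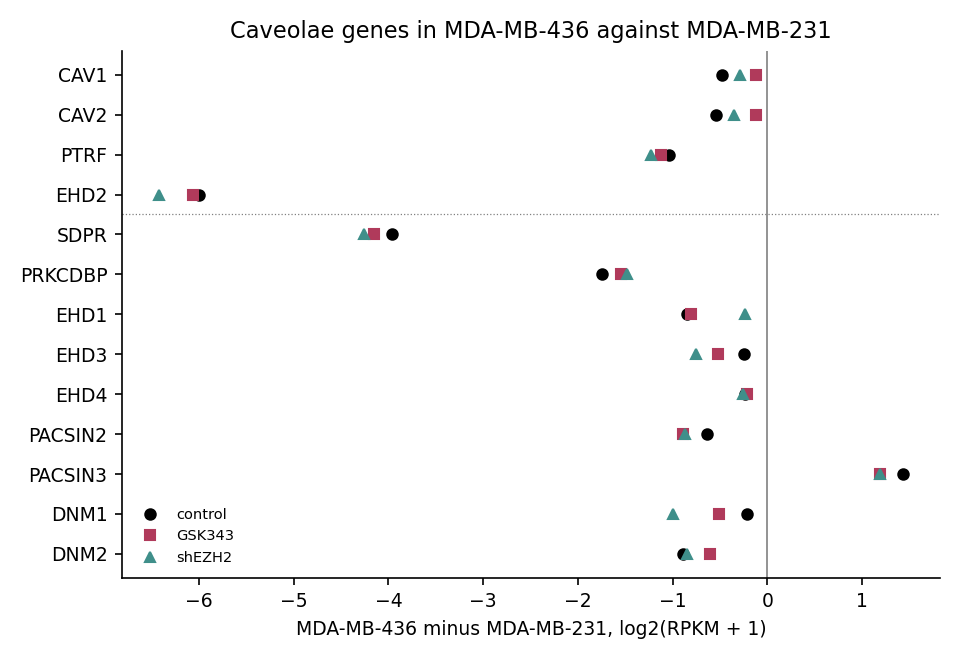
MDA-MB-436 minus MDA-MB-231 on the log2(RPKM + 1) scale (horizontal axis) in the control, GSK343-labelled and shEZH2-labelled libraries, for the 4 members, above the dotted line, and the 9 other tested coat and neck genes. EHD2 and SDPR lie farthest to the left, and PACSIN3 is the gene to the right of 0.

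The coat and neck list, whose genes other than the members were tested, showed the same side. Of 9 tested genes 7, SDPR among them, were lower in MDA-MB-436 and 1 was higher (limma, median log2 difference -0.63, against 0.09 over all tested genes). Over all tested genes 28.6% were called lower and 34.8% higher. PRKCDBP differed by -1.59 ± 0.36 (half-width of the 95% interval, adjusted p = 6.4e-06) and PACSIN2, a membrane-bending protein of the neck, by -0.80 ± 0.30 (adjusted p = 0.000324). SDPR, at -4.13, passed the filter on low values only through libraries of the other lines, so its difference is a description. PACSIN3, another pacsin, was higher in MDA-MB-436 (1.27 ± 0.33, adjusted p = 2.02e-05), with 69.3 RPKM in its control against 25.1 in that of MDA-MB-231. SDPR thus shared with EHD2 a level near 0 in MDA-MB-436, at 0.0738, 0.0374 and 0.0174 RPKM in the 3 conditions. The p-values come from the fit of all 9 libraries with treatment as a term. They measure how line differences vary between conditions, pooled over all 3 lines, and not the spread between separate cultures.

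Partners and regulators of caveolae were counted from lists chosen in the same way. Of 24 raft proteins, kinases and receptors 21 were tested. Over all tested genes 6.25% were called higher and 1.6% lower for the GSK343 label, and 8.35% and 2.28% for the shEZH2 label. The counts are given beside these shares and are not read as results about the list. For the GSK343 label the kinases SRC, which phosphorylates caveolin-1 (0.55 ± 0.33, adjusted p = 0.0437), and FYN (0.54 ± 0.32, adjusted p = 0.0468) rose and 0 fell, with a list median of -0.02. For the shEZH2 label SRC (0.62 ± 0.33, adjusted p = 0.023), STOM, the raft protein stomatin (0.65 ± 0.31, adjusted p = 0.0161), and FLOT2, which scaffolds flotillin rafts (0.51 ± 0.32, adjusted p = 0.0448), rose and 0 fell, with a list median of 0.06. SRC had 10.996, 5.21 and 5.84 RPKM in the controls, 15.5, 6.77 and 11.5 under the GSK343 label and 16.5, 7.12 and 12.1 with the shEZH2 label. None of these calls passed without the 3 libraries labelled MDA-MB-453 (SRC 0.39 and 0.47, FYN 0.60, STOM 0.73, FLOT2 0.42).

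These calls were also fragile to scaling and to single libraries. After median-ratio rescaling SRC (0.45) and FYN (0.45) for the GSK343 label and FLOT2 (0.41) for the shEZH2 label did not pass. FLOT2 passed for the GSK343 label without the control of MDA-MB-436 (0.61). With each of the 9 left out in turn, FYN did not pass in any case (0.39 to 0.62). SRC under the GSK343 label and FLOT2 with the shEZH2 label passed only without the control of MDA-MB-436 (0.67 and 0.63) and lay between 0.39 and 0.61 and between 0.40 and 0.54 otherwise. SRC with the shEZH2 label did not pass without the control labelled MDA-MB-453 (0.46) or the library from MDA-MB-231 labelled shEZH2 (0.64), MDA-MB-436 (0.68) or MDA-MB-453 (0.55). STOM did not pass without those same shEZH2-labelled libraries (0.66, 0.63 and 0.68).

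Genes that act on caveolin turnover gave 0 calls among 4 tested for either label (1 and 0 at an unadjusted p under 0.05 in limma). VCP, the ATPase that extracts ubiquitinated caveolin-1 for sorting to lysosomes, had log2 fold changes of -0.24 and -0.19, and its cofactor UBXN6 0.04 and 0.01. The clathrin route, another path of endocytosis, likewise had 0 calls among 11 tested genes (1 and 0 at an unadjusted p under 0.05 in limma), with medians of 0.04 and -0.00387. The heavy chain CLTC had -0.18 and -0.06. Over all tested genes 7.85% and 10.6% were called for the GSK343 and shEZH2 labels, so 0 calls among so few genes says little about either list.

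Among 16 factors and targets of the mechanosensitive YAP/TAZ, TEAD and MRTF/SRF pathways, all tested, ANKRD1, a YAP target, rose under the GSK343 label (1.01 ± 0.34, adjusted p = 0.00378) and, with TEAD3, a DNA-binding partner of YAP (0.64 ± 0.33, adjusted p = 0.0223), with the shEZH2 label (0.56 ± 0.34, adjusted p = 0.0394). With all libraries 0 passed as lower, and 5 and 4 genes were at an unadjusted p under 0.05. Over all tested genes 6.25% and 8.35% passed as higher and 1.6% and 2.28% as lower. The counts are therefore not read as results about the list. The list medians were -0.15 and -0.09. CTGF, another YAP target, was at -0.84 ± 0.65 and -0.69 ± 0.65 and did not pass. It had 192, 3.85 and 99.8 RPKM in the controls, 80.6, 5.24 and 31.4 under the GSK343 label and 82.8, 5.02 and 43.4 with the shEZH2 label. Its call turned on single libraries: without the MDA-MB-436 control CTGF passed as lower for both labels (-1.39, adjusted p = 0.00286, and -1.24, adjusted p = 0.0037, limma), and for the GSK343 label also without the MDA-MB-436 library of that label (-1.19, adjusted p = 0.024). Over all single libraries left out it ranged from -1.39 to -0.52 and from -1.24 to -0.37, the smallest values being those without the control labelled MDA-MB-453. ANKRD1 with the shEZH2 label passed only without the GSK343-labelled library from MDA-MB-436 or that from MDA-MB-453, and was 0.45 to 0.64 over all single libraries left out. It also did not pass after median-ratio rescaling (0.48) or with a pseudocount of 0.1 (0.68). For the GSK343 label TEAD3 passed with a mean RPKM of at least 5 (0.53). TEAD3 did not pass without the control labelled MDA-MB-453 (0.48) or the library from MDA-MB-231 labelled shEZH2 (0.62), MDA-MB-436 (0.69) or MDA-MB-453 (0.60). Without the 3 libraries labelled MDA-MB-453, ANKRD1 passed for the GSK343 label (1.17) but not for the shEZH2 label (0.53), nor did TEAD3 (0.51).

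Neighbouring genes were examined because CAV1 and CAV2 share a locus. The RefSeq starts used above are 25.3 kb apart. TES lies upstream of both, and MET, the hepatocyte growth factor receptor, CAPZA2, a capping protein of actin, and ST7 lie downstream. None of these 4 passed, where 7.85% and 10.6% of all tested genes did for the GSK343 and shEZH2 labels. MDFIC, farther upstream, did not pass with all libraries (-0.31 and -0.38) but passed as lower without the MDA-MB-436 control (-0.55, adjusted p = 0.0466, and -0.62, adjusted p = 0.0271, limma), and was -0.12 and -0.18 without the control labelled MDA-MB-453. Log2 fold changes were 0.19 and 0.03 for TES, -0.0049 and 0.16 for MET, -0.28 and -0.37 for CAPZA2 and 0.31 and 0.08 for ST7 under the GSK343 and shEZH2 labels. The expression of TFEC, between CAV2 and MDFIC on the upstream side, did not exceed 0.06 RPKM.

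**Figure D4:**
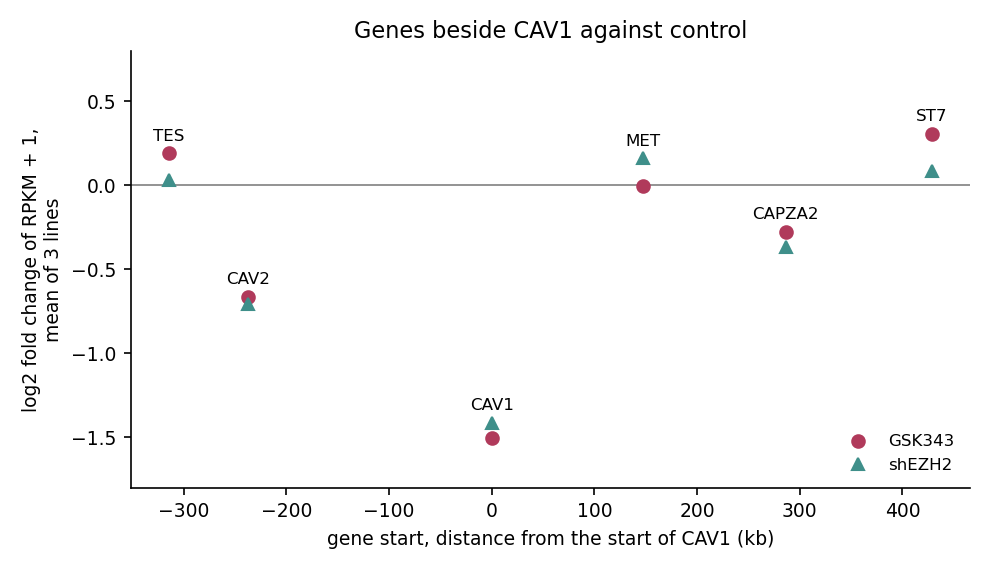
Log2 fold change of RPKM + 1 against control (vertical axis, mean of 3 lines) for CAV1 and its nearest tested protein-coding neighbours, by the distance of each annotated gene start from that of CAV1 in kb (horizontal axis). CAV1 and CAV2 lie at -1.50 to -0.66 and the 4 neighbours between -0.37 and 0.31; CAV2 is placed at its farthest upstream annotated start.

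Beside PTRF, at higher coordinates, ATP6V0A1, a subunit of the proton pump of lysosomes (0.90 ± 0.32, adjusted p = 0.00457, and 0.84 ± 0.32, adjusted p = 0.00661, limma), and NAGLU, a lysosomal enzyme of heparan sulfate breakdown (0.63 ± 0.31, adjusted p = 0.0217, and 0.66 ± 0.31, adjusted p = 0.0147), rose under the GSK343 and shEZH2 labels. STAT3, STAT5A and STAT5B on its other side did not pass, at 0.04 to 0.21. Without the 3 libraries labelled MDA-MB-453 neither passed (0.84 and 0.74 for ATP6V0A1, 0.57 and 0.53 for NAGLU). ATP6V0A1 passed with each single library left out. NAGLU did not pass under the GSK343 label without the control labelled MDA-MB-453 (0.53) or the library from MDA-MB-231 labelled GSK343 (0.65), MDA-MB-436 (0.59) or MDA-MB-453 (0.64), nor with the shEZH2 label when either the control (0.57) or the shEZH2 library (0.56) with the MDA-MB-453 label was dropped. Beside EHD2, none of NAPA, GLTSCR1, GLTSCR2 and SEPW1 passed (-0.04 to 0.57), though NAPA did for the GSK343 label without the control of MDA-MB-436 (0.68) or with a mean RPKM of at least 5 (0.57), and GLTSCR2, 2.39 kb downstream, was higher in MDA-MB-436 by 1.17 while EHD2 was lower there.

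The genes most like CAV1 over the 9 libraries, by Pearson correlation of log2(RPKM + 1), were COMMD10 (0.987), HNRNPL (0.982), HNRNPA3 (0.979), NSMCE4A (0.971), FANCC (0.970), DEPDC1B (0.967), PNN (0.962) and HNRNPA2B1 (0.961). After the mean of each line was subtracted they were SMS (0.997), HNRNPA2B1 (0.996), UBE2E3 (0.991), NRG1 (0.990), HNRNPL (0.989), PARP1 (0.988), KHDRBS1 (0.988) and COMMD10 (0.987). CAV2 had 0.959 and 0.986 with CAV1 by these measures. EHD2 had 0.06 and -0.86, and PTRF 0.33 and 0.62. The 9 points share lines and controls, so the values describe likeness of pattern only. HNRNPA2B1, an RNA-binding protein, had a mean of 167 RPKM in the controls and 99.8 in the targeted libraries.

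The members were also set against the weighted sums that describe the libraries labelled MDA-MB-453. Under the shEZH2 label the sums gave 77.5, 13.3, 181 and 74.1 RPKM for CAV1, CAV2, PTRF and EHD2, and the library had 75.9, 13.6, 180 and 70.0. The GSK343-labelled library had 77.6 RPKM of EHD2 where the sum gave 55.4, a log2 difference of 0.48 that 2.39% of the 7416 genes exceeded, and the differences of its other members were at most 0.12. The control labelled MDA-MB-453 had more CAV1 than its sum (242 against 187) and less EHD2 (30.1 against 47.2). That control was the least well described by its sum over all genes, and its members' differences, from -0.63 to 0.38, were exceeded by 17.2% to 66.0% of the genes.

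**Figure D5:**
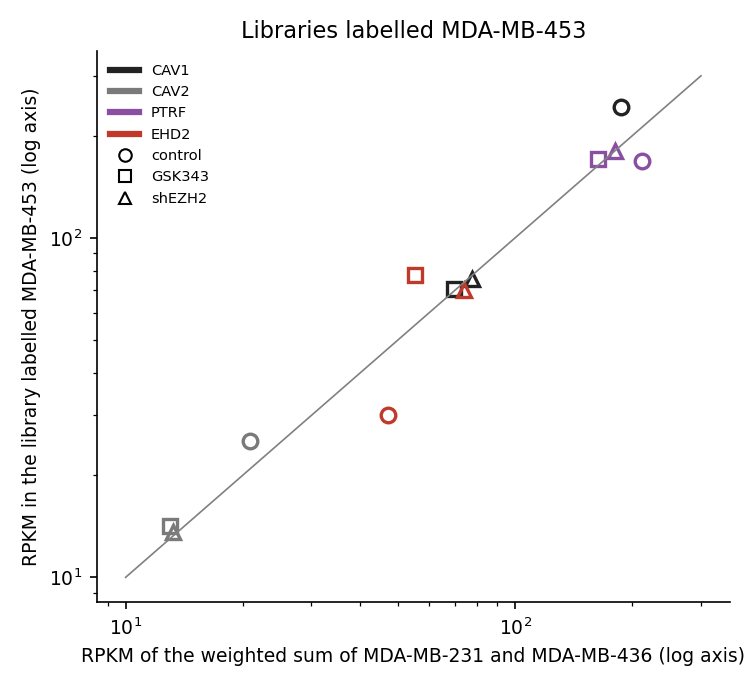
RPKM in the libraries labelled MDA-MB-453 (vertical, log axis) against the weighted sum of the other lines in the same condition (horizontal, log axis), for the 4 members in 3 conditions; the line marks equality. The shEZH2-labelled points lie on the line, and those of EHD2 in the control (30.1 against 47.2) and under the GSK343 label (77.6 against 55.4) lie off it.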

How the data were processed

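RNA sequencing of total RNA from 9 libraries was used. The deposited values are RPKM, which the authors made from reads aligned and counted with STAR and HTSeq on GRCh38, per the submitters' processing notes; no version, annotation or strand setting is stated, so overlap with antisense genes (none above 1.48 RPKM at these loci) is uncertain. All 9 columns of the table were used (0 unused). Multiplied by GENCODE release 29 exon lengths, low values were whole reads (100% within 0.05), which gave 14757000 to 18283000 reads per library. Read intervals cover counting error only. Of the gene identifiers 92.5% matched that release, which also gave coordinates; promoters are from RefSeq.

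Genes with RPKM of at least 1 in at least 3 libraries (12965) were put on the log2(RPKM + 1) scale, and limma 3.58.1 was run in R 4.3.3 with treatment and line as terms, a mean-variance trend, two-sided p-values and Benjamini-Hochberg adjustment over all genes (threshold 0.05). A second limma model tested whether the response differs between lines by an F-test. There the GSK343-labelled and shEZH2-labelled libraries of a line stood in as replicates of a targeted state. Fold changes are on the log2(RPKM + 1) scale and understate those of low genes. Groups came from the labels and columns from their headers. Lines pair the libraries: deviations from group means correlated at 0.358 to 0.953 across genes within a line and -0.914 to 0.09 between lines. Subtracting group means pushes correlations between lines below 0, so the second range is partly built in. In the first model p-values measure only how differences between treatments vary over these lines, and differences between lines over these conditions. Weighted sums for MDA-MB-453 minimised squared log2 differences over genes with a mean RPKM of at least 5, members left out. The code was tested on simulated data. Alternatives were a pseudocount of 0.1, no filter, a mean RPKM of at least 5, median-ratio rescaling, no trend, no replicate block, and libraries left out. Named genes are the members, up to 4 per list and contrast by smallest p, the 8 most like CAV1 and the 3 nearest coding neighbours per side; of these, and of the between-line values, those that bear on the members are printed. Members and lists were chosen with earlier results of these data known.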

Additional observations from a re-analysis of the deposited data

Results flagged for a closer look

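PTRF lay on different sides of its control between lines. The mean of both targeted libraries minus the control of the line was -0.27 in MDA-MB-231 and -0.40 in MDA-MB-436, and 0.058 in the libraries labelled MDA-MB-453 (log2(RPKM + 1)). In each line both targeted libraries lay on the same side of their 1 control, but in the MDA-MB-453-labelled library under GSK343 PTRF had 170.5 RPKM (exact 95% Poisson interval for counting error 167.2 to 173.9) against 168.3 (165.1 to 171.6) in the control, a difference not detectable at this depth. The difference was not tested, since PTRF was among the genes chosen from these data.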

How the results depend on the processing

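Depth did not limit CAV1 and CAV2, and in MDA-MB-436 it limits EHD2. For PTRF, the GSK343-labelled library and the control labelled MDA-MB-453 could not be told apart at this depth. The mean differences of CAV1 and CAV2 from control kept their sign after median-ratio rescaling. Both genes lay below control in every line under both labels. A pseudocount of 0.1, or leaving out any 1 line, therefore could not change that sign, and neither is a test of it. Dropping a single library of the pair leaves out the same line. EHD2 between MDA-MB-436 and MDA-MB-231 was -7.37 with a pseudocount of 0.1, against -6.16, and PTRF -1.24 after median-ratio rescaling, against -1.13. Without the replicate block 2 genes passed for each label, against 1018 and 1377. With no filter 19 and 28 genes, 0 members among them, passed for the GSK343 and shEZH2 labels, 28 between the labels (against 0) and 1584 for the difference between lines (against 3); the cause was not tested. None of the calls given for listed or neighbouring genes against control held with no filter or without the block. With a mean RPKM of at least 5, fewer genes were tested, and 1 passed between the labels, 7 for the difference between lines and 4722 between MDA-MB-436 and MDA-MB-231 (against 8224). Leaving out single libraries, or all 3 labelled MDA-MB-453, gave 43 to 1250 genes for the GSK343 label, 16 to 1621 for the shEZH2 label, 0 to 3 between the labels, 6909 to 8792 between the lines and 0 to 4049 for the difference in response, which is given as a count only. Over 1.5 times fewer genes passed when the control labelled MDA-MB-453 was dropped (289 and 322). The same held for the GSK343 label on dropping its own library from MDA-MB-231 (490), from MDA-MB-436 (619) or from MDA-MB-453 (317), and for the shEZH2 label likewise (410, 910 and 449 genes, lines in the same order). EHD2 passed as higher for both labels with a pseudocount of 0.1 and without the control of MDA-MB-436, and for the shEZH2 label also with a mean RPKM of at least 5 or on dropping the GSK343-labelled library from MDA-MB-436 or MDA-MB-453.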

Other observations

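CAV1 was 1 of 9 genes that were at least 1.5-fold lower than the control of their line in all 6 targeted libraries on the scale of RPKM + 1, a set picked after its values were seen. The others were the lamin LMNB1, the splicing factor SRSF1, the RNA-binding proteins HNRNPD and HNRNPA2B1, the growth factor NRG1, PTRHD1, AC108463.2 and the small nuclear RNA gene RNVU1-6. By the mean over the 6 libraries CAV1 differed most (-1.46), followed by RNVU1-6 (-1.42), which had 0.728 to 6.54 RPKM in the controls, and LMNB1 (-1.28). HNRNPA2B1 had 163 to 173 RPKM in the controls and 95.6 to 105 in the targeted libraries.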
